A study of Mus musculus with 8 samples.

Results

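Peroxisomes are small organelles bounded by a membrane that shorten very-long-chain and branched fatty acids, start the synthesis of ether lipids and break down hydrogen peroxide. Their matrix enzymes are made in the cytosol and carried in by the receptors Pex5 and Pex7. The receptors dock at Pex13 and Pex14, are marked with ubiquitin by a ring of membrane proteins, and are pulled back out by a motor that Pex26 holds at the membrane. Chain-shortened acyl groups leave the organelle as carnitine esters and can then be oxidized in mitochondria. In bone, peroxisome defects are known from human disorders with skeletal abnormalities, and osteoblasts are known to oxidize fatty acids.

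The transcripts described here are those of 33 genes of peroxisome biogenesis and peroxisomal lipid metabolism, out of 47706 genes in the count table. They were chosen by symbol from a list, which names 12 Pex genes and 21 enzymes and transporters, and each symbol had a single entry. The question was how these transcripts responded to parathyroid hormone (PTH) in osteoblasts. Polyadenylated RNA was sequenced from 4 samples given PTH and from 4 given vehicle, in both cases for 24 hours after differentiation over 7 days. The cells were primary calvarial osteoblasts, that is, bone-forming cells released from the skull bones of newborn mice. The titles of both groups carry the prefix Con, the labels give neither genotype nor strain, and they name adipogenic differentiation where the methods of the study describe osteogenic medium and serum starvation before treatment. Nothing in the labels says that samples of a group came from separate cultures, so p-values measure only the spread between them.

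Libraries held between 33605610 and 56090654 counts. Tnfsf11, which encodes RANKL and is a known target of PTH, rose from 1.42 ± 0.365 to 128 ± 20.0 CPM (counts scaled to library size; mean ± SD, n = 4 per group throughout), and the receptor gene Pth1r had a log2 fold change of -0.70. The summed level of 10 osteoblast markers lay between 92666 and 104965 CPM with vehicle and between 86680 and 125195 CPM with PTH, and that of 8 adipocyte markers lay between 420 and 487 CPM and between 437 and 497 CPM. Most of the osteoblast sum came from Col1a1, Col1a2 and Sparc, and 3 of the 10 markers passed the test, all as lower, namely Sp7 (log2 fold change -1.78), Dmp1 (-1.12) and Runx2 (-0.33). Most of the adipocyte sum came from Lpl (means of 395 and 429 CPM), and 1 of the 7 tested markers passed, Pparg, which fell from 16.0 to 5.67 CPM (-1.50, adjusted p = 3.66e-07 by edgeR). The 10 macrophage markers summed to between 999 and 1625 CPM with vehicle and between 1563 and 2009 CPM with PTH, and 1 of them (Lyz2) passed the test, as higher. Of 6 chondrocyte markers 2 were higher, of 6 endothelial markers 1 was higher and 1 lower (Emcn was at 0 in every sample), and of 6 skeletal muscle markers 1 was higher and 1 lower. The part of these other cells in the results was not tested, and in a bulk culture fewer cells of a type and less RNA per cell cannot be told apart.

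Pex5 was the member that changed most. Its fitted level with PTH was 98.4% above that with vehicle, whereas no other Pex gene passed the test as higher. The filter on low counts kept 32 members, and at an adjusted p under 0.05 PTH raised 2 of them and lowered 10 (quasi-likelihood test of edgeR, adjusted by Benjamini-Hochberg over all 16736 genes tested). Among the 12 Pex genes 1 was upregulated and 3 were downregulated, and among the 20 tested enzymes and transporters 1 was upregulated and 7 were downregulated. PTH changed 45.8% of all tested genes, 23.3% upward and 22.5% downward, so the 37.5% of members that changed lies below the background, with 6.25% upregulated and 31.25% downregulated. The median log2 fold change was -0.12 for the members, 0.04 for the Pex genes and -0.14 for the enzymes and transporters, beside -8.14e-04 for all tested genes. No set test was run on these lists. Changes were small, with a median absolute log2 fold change of 0.17 against 0.35 for all genes, and no member reached 1 on the log2 scale. In 14 members the 4 PTH samples lay all above (4) or all below (10) the 4 vehicle samples, against 43.0% of all tested genes (21.2% higher, 21.8% lower).

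**Figure D1:**
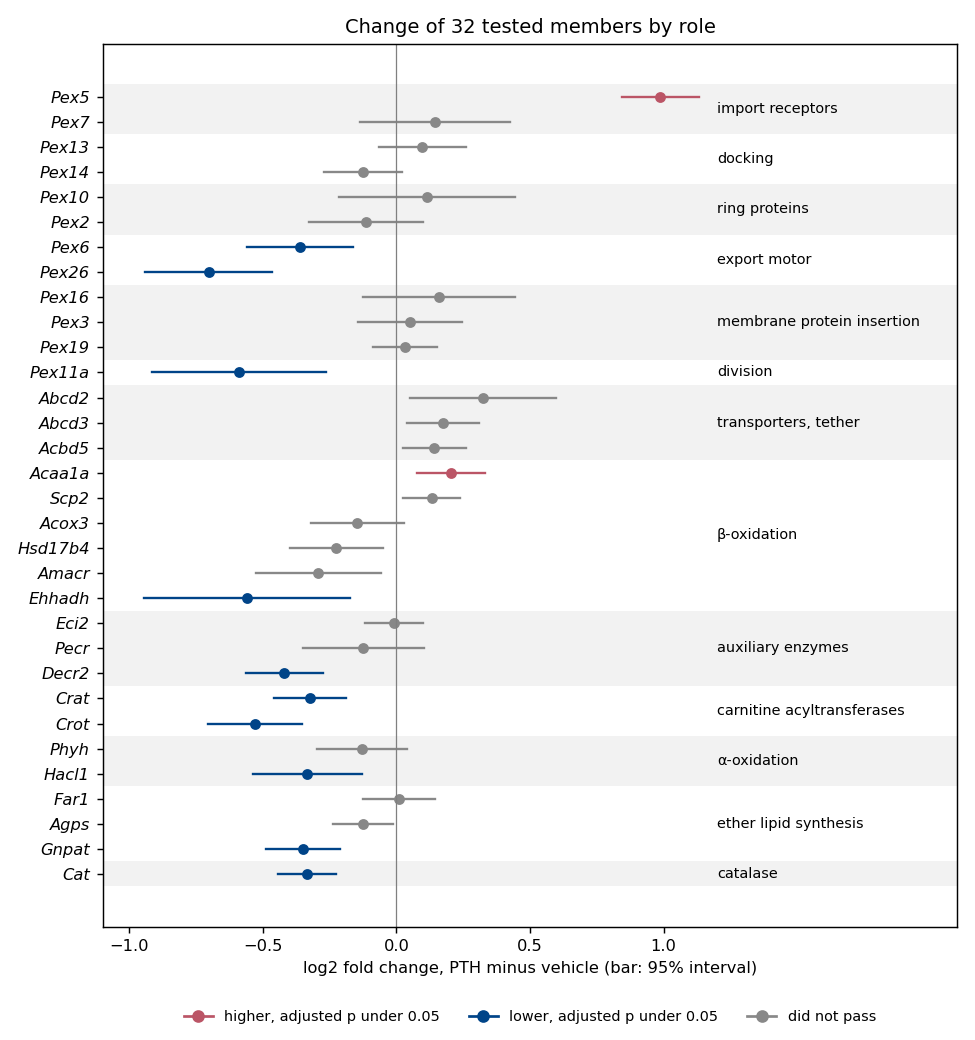
Log2 fold change between PTH and vehicle (x axis, edgeR estimate with its 95% interval as a bar) for the 32 tested members, grouped by role (y axis, shaded blocks). Pex5 stands at 0.99 above every other member, and the downregulated members reach from Crat at -0.32 to Pex26 at -0.70.

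The sequences before the start sites of the 2 import receptors, of Pex13 and of Pex6 are shown because PTH signals through cyclic AMP, and the cyclic AMP response element TGACGTCA, or its shorter form TGACG, is the sequence bound by CREB. Windows of 250 bases before to 50 bases after each start were taken from RefSeq on GRCm38, where 27 of the 33 members had at least 1 window. Capitals mark CGTCA, which is TGACG read on the opposite strand, or the whole element in Pex13.

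Pex5, chr6:124415856-124416105, minus strand: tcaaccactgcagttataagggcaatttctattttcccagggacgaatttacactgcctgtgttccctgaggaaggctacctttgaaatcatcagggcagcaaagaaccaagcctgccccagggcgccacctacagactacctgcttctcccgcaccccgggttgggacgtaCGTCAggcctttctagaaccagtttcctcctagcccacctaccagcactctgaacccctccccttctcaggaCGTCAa

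Pex7, chr10:19907726-19907755, minus strand: atggtcctcgcggCGTCAgttcccttttct

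Pex7, chr10:19907675-19907704, minus strand: ggattccgggcgtcggcgtCGTCActtccg

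Pex13, chr11:23665948-23665977, minus strand: acgccttggccTGACGTCAggcgtgggcgg

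Pex6, chr17:46711326-46711355, plus strand: caacggaggcggtCGTCAagccaggctccc

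The Pex5 sequence ends at the base before the most upstream of its 3 RefSeq starts, which lies 788 bases before the start of Pex5 in GENCODE M21. The windows of the other 2 Pex5 starts, 1 of which is the GENCODE start, hold no TGACG on either strand, and gene counts do not tell which start was used. The RefSeq starts used for Pex7, Pex13 and Pex6 lie inside the GENCODE genes. The second Pex7 sequence and the Pex13 sequence therefore overlap annotated exons of their own genes. TGACG was found in windows of 13 of the 27 members (48.1%), against 33.9% of 11296 tested genes with a window. It was present in 4 of 11 members that changed (Pex5, Pex6, Gnpat and Ehhadh) and in 8 of 15 tested members that did not pass the test. The whole element TGACGTCA was found in Pex13 alone among the members, in 1 of their 33 windows, against 1.79% of all 32851 windows. The exact letters of the PPAR-type element, a direct repeat of AGGTCA with 1 base between the copies, were searched on either strand. They were in none of the 33 member windows and in 13 of all 32851 windows (0.0396%). Letters this rare would be missing from most sets of 33 windows, so their absence cannot decide whether members hold PPAR sites. A match of letters is a description and not a bound site.

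Pex5 is the receptor that binds the C-terminal targeting signal carried by most matrix enzymes, and in its long form it also carries Pex7. The gene lies on chromosome 6 from 124396816 to 124415067 (GRCm38). The vehicle samples had 44.0, 45.1, 45.8 and 43.0 CPM, and the PTH samples had 97.5, 85.8, 78.3 and 91.1 CPM. Every PTH sample was far above every vehicle sample, and the vehicle samples were within a few CPM of each other. The log2 fold change was 0.99 (SE 0.0735, adjusted p = 4.27e-07 by edgeR), and the exact permutation test gave a two-sided p of 0.0286, which is the smallest that 4 samples against 4 allow. Counts per sample ran from 1964 to 4999. In all 16 alternative fits the increase passed, with log2 fold changes between 0.93 and 1.06.

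Pex7 is the receptor for the N-terminal targeting signal, which is found on a few enzymes such as Phyh, Agps and Acaa1a. It had 15.3, 11.1, 11.98 and 13.2 CPM with vehicle and 12.4, 17.0, 16.1 and 11.5 CPM with PTH, so the treatments overlapped (log2 fold change 0.14, adjusted p = 0.442 by edgeR). The 95% interval of that change, from -0.14 to 0.43, leaves room for a moderate increase. Per kb of the longest annotated transcript, the ratio of Pex5 to Pex7 was 9.03 ± 1.39 with vehicle and 16.5 ± 4.40 with PTH. Those lengths were 3148 bases for Pex5 and 8099 bases for Pex7. The size of the ratio rests on them, while its change between treatments does not. All 4 PTH samples had a higher ratio (12.5 to 20.4) than any vehicle sample (at most 10.5), with an exact two-sided permutation p of 0.0286 (0.0429 after adjustment over 6 pairs of members compared). For Pex5 against the docking protein Pex14 the ratio was 1.74 ± 0.0979 with vehicle and 3.76 ± 0.186 with PTH, with the same exact p-values. Both ratios hold the Pex5 values already tested above, so their p-values are not separate support for its increase.

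The docking proteins Pex13 and Pex14, at which the loaded receptors arrive, did not pass the test. Pex13 had a log2 fold change of 0.10 (95% interval -0.07 to 0.26) and Pex14 of -0.12 (-0.27 to 0.02). The ring proteins Pex2 and Pex10, which attach ubiquitin to the receptors, had values of -0.11 (adjusted p = 0.428) and 0.12 (adjusted p = 0.608). Pex2 spread more widely with PTH (25.2 to 35.5 CPM) than with vehicle (29.7 to 35.2 CPM). Pex3, Pex16 and Pex19, which insert proteins into the peroxisomal membrane, had log2 fold changes of 0.05, 0.16 and 0.03, none of which passed. Pex19 is the shuttle for membrane proteins and was the most abundant Pex gene with vehicle (33.9 ± 1.83 CPM per kb), and had 34.7 ± 1.29 with PTH.

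Both members of the export machinery fell. Pex26 is the tail-anchored protein that holds the motor at the membrane. The vehicle samples had 8.97, 9.07, 8.55 and 7.90 CPM of Pex26 and the PTH samples 5.81, 4.81, 4.70 and 5.82 CPM. The groups did not overlap, and the log2 fold change was -0.70 (SE 0.121, adjusted p = 5.31e-04 by edgeR). Pex6 encodes an ATPase of the motor. Pex6 had 41.5, 33.3, 35.0 and 37.6 CPM with vehicle and 25.7, 34.0, 26.1 and 29.1 CPM with PTH. PTH replicate 2 lay above the lowest vehicle sample, so the groups overlapped (exact permutation test, two-sided p = 0.0571), while the fit gave -0.36 (SE 0.102, adjusted p = 0.0120).

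Pex11a, which promotes elongation and division of peroxisomes, was the remaining Pex gene that fell. It had 4.22, 3.44, 4.11 and 4.60 CPM with vehicle and 3.02, 2.77, 2.77 and 2.31 CPM with PTH. The groups did not overlap, but rest on 92 to 228 counts per sample (log2 fold change -0.59, SE 0.166, adjusted p = 0.0118). Summed per kb, the 12 Pex genes lay between 105 and 116 CPM with vehicle and between 117 and 124 CPM with PTH. Without Pex5 the sums lay between 91.7 and 102 CPM with vehicle and between 88.5 and 96.6 CPM with PTH, and overlapped.

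**Figure D2:**
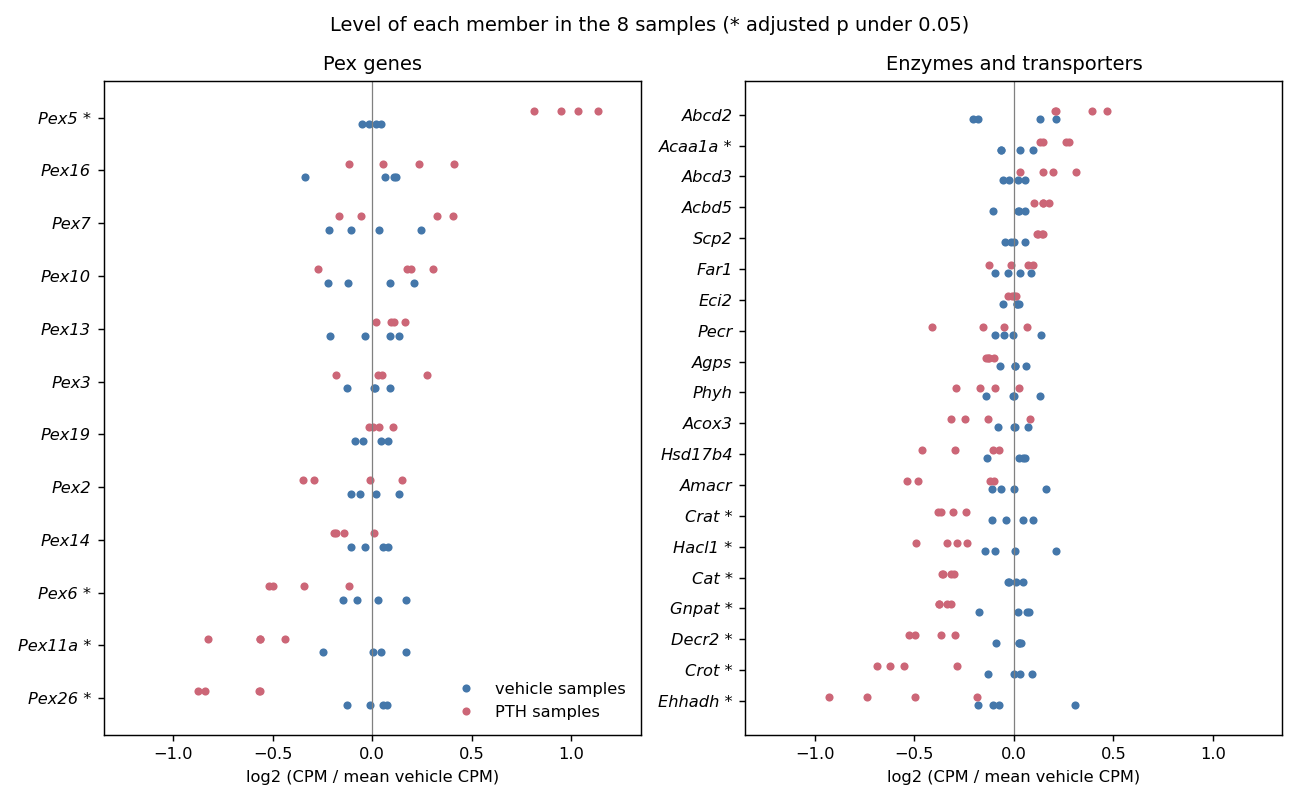
Level of each tested member in each of the 8 samples, as the log2 of CPM over the mean vehicle CPM (x axis), for the 12 Pex genes on the left and the 20 enzymes and transporters on the right. The PTH points of Pex5 lie clear of the vehicle points to the right, and those of Pex26, Crot, Decr2, Gnpat, Cat and Crat lie to the left without overlap.

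Both carnitine acyltransferases among the members fell. Crot transfers medium-chain acyl groups to carnitine for export from the organelle. The vehicle samples had 54.3, 51.2, 52.1 and 46.7 CPM of Crot, and the PTH samples had 34.8, 31.7, 41.9 and 33.2 CPM. All PTH samples were lower, the highest being replicate 3 (log2 fold change -0.53, SE 0.0903, adjusted p = 4.90e-04 by edgeR). Crat does the same for acetyl and other short-chain groups, in peroxisomes and in mitochondria. It fell from 43.6, 48.7, 45.8 and 50.4 CPM to 38.1, 36.6, 36.2 and 39.96 CPM without overlap (log2 fold change -0.32, SE 0.0689, adjusted p = 0.00229). The ratio of Crot to Crat per kb was 1.54 ± 0.190 with vehicle and 1.33 ± 0.207 with PTH and overlapped (exact permutation p = 0.200, two-sided).

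Cat encodes catalase, which destroys the hydrogen peroxide made by peroxisomal oxidases, and was the most abundant member per kb. Its CPM was 165, 169, 164 and 173 with vehicle and 135, 130, 131 and 136 with PTH. The spread within each group was small beside the distance between them, and the fitted decrease was 20.7% (log2 fold change -0.33, SE 0.0555, adjusted p = 3.98e-04 by edgeR). Decr2 reduces double bonds so that unsaturated fatty acids can enter β-oxidation. It had 36.2, 36.2, 33.5 and 36.6 CPM with vehicle and 25.2, 24.8, 29.0 and 27.6 CPM with PTH, with no overlap and a log2 fold change of -0.42 (SE 0.0735, adjusted p = 5.94e-04). Eci2, an isomerase for unsaturated chains, averaged 60.8 ± 1.53 and 60.5 ± 0.744 CPM in the vehicle and PTH samples (95% interval of the log2 fold change -0.12 to 0.10). Its paralog Eci3, with which it shares 397 bases at 95.2% identity, had at most 58 counts in any sample (-0.08, adjusted p = 0.908). Pecr, a reductase of trans-2-enoyl-CoA, had a log2 fold change of -0.12 that did not pass (adjusted p = 0.414).

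**Figure D3:**
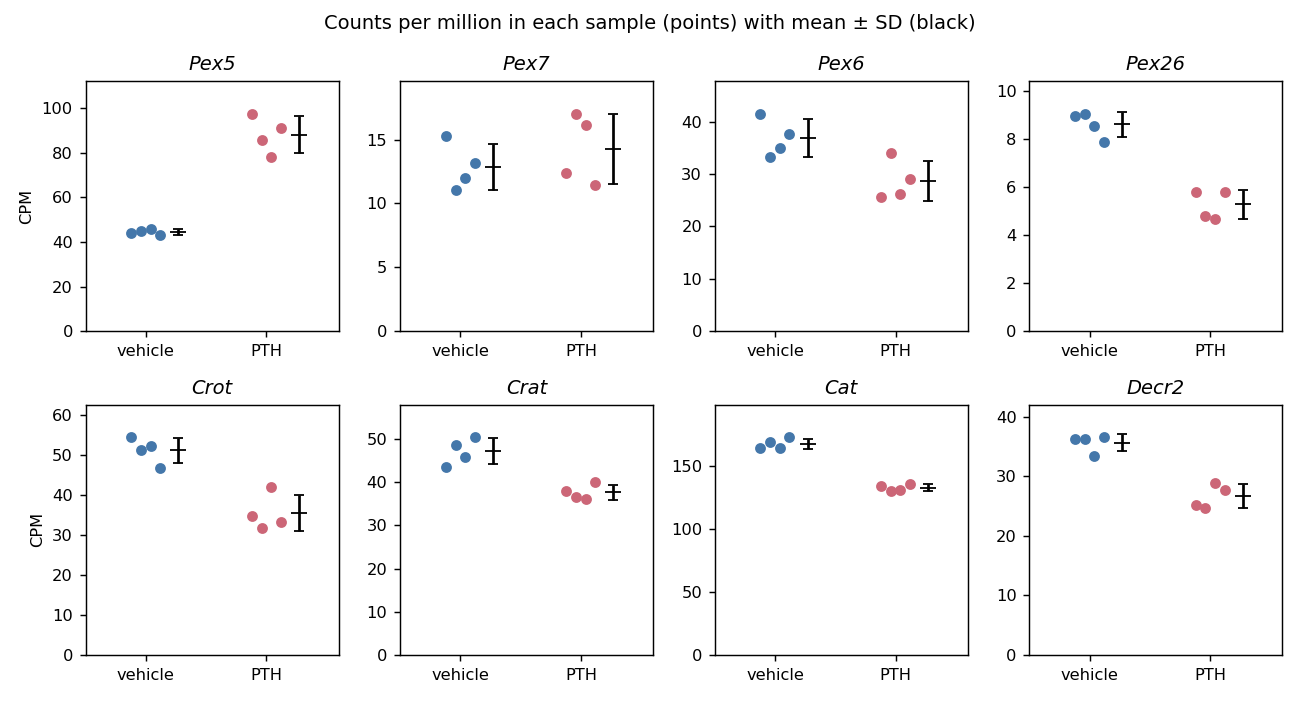
CPM (y axis, from 0) of 8 members in the vehicle and PTH samples (x axis), with each sample as a point and the mean ± SD in black. Pex5 was higher in all 4 PTH samples, Pex26, Crot, Crat, Cat and Decr2 were lower in all 4, and Pex7 and Pex6 overlapped.

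The β-oxidation enzymes among the members did not move as a block. Ehhadh is the bifunctional hydratase and dehydrogenase of the straight-chain pathway. It had 4.08, 5.33, 3.80 and 3.99 CPM with vehicle and 2.58, 2.26, 3.78 and 3.04 CPM with PTH, and PTH replicate 3 nearly touched the lowest vehicle sample. Its decrease of -0.56 passed (SE 0.196, adjusted p = 0.0349 by edgeR) on 75 to 232 counts per sample, but was lost without PTH replicate 1 (0.0743), 2 (0.0802) or 4 (0.0578), without vehicle replicate 1 (0.0532) or 2 (0.111), and with an offset for transcript length (0.0616), within a range of adjusted p from 0.0149 to 0.111 over all alternatives. Hsd17b4 is the bifunctional protein that also handles branched chains and bile acid intermediates. Hsd17b4 had 74.1, 64.7, 73.5 and 72.6 CPM with vehicle and 67.7, 51.7, 58.0 and 66.2 CPM with PTH, and the groups overlapped (log2 fold change -0.23, adjusted p = 0.0560). Its adjusted p was 0.0198 without PTH replicate 1, 0.0456 without PTH replicate 4 and 0.0272 with counts thinned to the smallest library (range 0.0198 to 0.185).

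Acaa1a, the thiolase that splits off acetyl-CoA in the last step, was the only enzyme that rose. The vehicle samples had 85.1, 79.5, 88.9 and 79.6 CPM of Acaa1a and the PTH samples 91.2, 101, 92.3 and 99.7 CPM. The groups did not overlap, but the fitted increase was 15.3% (log2 fold change 0.21, SE 0.0646, adjusted p = 0.0208 by edgeR). It was lost without PTH replicate 4 (adjusted p = 0.0630) and without vehicle replicate 2 (0.0874) or 4 (0.0707), and without the filter on low counts (0.0874), in a range from 0.00374 to 0.0874. Transcripts of Acaa1a share 1428 bases at 96.6% identity with the paralog Acaa1b, which had 2.24 ± 0.146 and 2.37 ± 0.506 CPM. They also share 224 identical bases with Myd88, which rose by 0.78 on the log2 scale, and the part of these reads in the increase was not tested.

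Scp2, whose long form is the thiolase for branched chains, had 89.7, 86.4, 85.2 and 83.5 CPM with vehicle and 93.8, 93.3, 95.1 and 95.5 CPM with PTH. All PTH samples were higher, yet the log2 fold change of 0.13 missed the threshold (adjusted p = 0.0668) and passed with counts halved (0.0461) and with an offset for transcript length (0.0114), within a range from 0.0114 to 0.255. Transcripts of Scp2 share 1371 bases at 99.6% identity with Scp2-ps2, and the part of such reads in these values was not tested. Acox3, an oxidase for branched chains, had 29.9, 28.2, 31.4 and 30.0 CPM with vehicle and 25.2, 31.6, 24.0 and 27.3 CPM with PTH, and overlapped (-0.15, adjusted p = 0.203). Without PTH replicate 2, the highest of the PTH samples, its adjusted p was 0.0389 (range 0.0389 to 0.491). Amacr, the racemase that prepares branched chains, had 14.2, 14.9, 13.7 and 16.6 CPM with vehicle and 13.9, 10.2, 10.6 and 13.6 CPM with PTH (-0.29, adjusted p = 0.0639). That decrease passed without PTH replicate 1 (0.0257) or 4 (0.0458) and with thinned counts (0.0478), with a range from 0.0257 to 0.178. Acox2, the oxidase for bile acid intermediates, had 0 to 9 counts per sample and could not be tested.

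The proteins that bring substrate to the organelle lay on the positive side of 0, and none passed the test. Abcd3 is the transporter for branched and dicarboxylic acyl groups. It had 59.3, 62.5, 64.1 and 60.5 CPM with vehicle and 76.5, 62.9, 68.2 and 70.5 CPM with PTH, with overlap through PTH replicate 2 (log2 fold change 0.17, adjusted p = 0.0580). Without that sample the adjusted p was 0.0137 and the log2 fold change 0.23, and with counts halved the adjusted p was 0.0416, within a range of adjusted p from 0.0130 to 0.221. Abcd2, a transporter for very-long-chain groups, had 4.64, 4.57, 6.09 and 5.77 CPM with vehicle and 7.28, 6.11, 6.92 and 6.09 CPM with PTH (0.32, adjusted p = 0.0777). Acbd5, which binds acyl-CoA and tethers peroxisomes to the endoplasmic reticulum, had 53.5, 58.5, 59.9 and 58.3 CPM with vehicle and 65.0, 63.6, 63.6 and 61.8 CPM with PTH. The Acbd5 groups did not overlap (0.14, adjusted p = 0.0721). With an offset for transcript length the 3 genes had log2 fold changes of 0.25 (Abcd3), 0.39 (Abcd2) and 0.21 (Acbd5) and passed (adjusted p = 0.0130, 0.0377 and 0.0120), while the ranges over all alternatives reached 0.212 for Abcd2 and 0.266 for Acbd5. Across the whole table the log2 fold change differed with annotated transcript length. The 3249 shortest genes (up to 1636 bases) had a median of 0.22. The 4 longer length classes of like size had medians between -0.07 and -0.03, with no steady trend among them.

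For α-oxidation, which shortens phytanic acid by a single carbon, Hacl1 was downregulated and Phyh was not called. Hacl1, the lyase of the pathway, had 15.8, 12.4, 13.7 and 12.8 CPM with vehicle and 10.8, 9.72, 11.2 and 11.6 CPM with PTH. The groups did not overlap (log2 fold change -0.33, SE 0.104, adjusted p = 0.0201), but the call was lost without PTH replicate 2 (0.0543), without vehicle replicate 1 (0.0658) and with the length offset (0.0595), in a range from 0.0192 to 0.0658. The assembly places Hacl1 in a locus shared with Colq, which had a log2 fold change of -0.26 (adjusted p = 0.113). Transcripts of Hacl1 share 1150 identical bases with Gm49387, and the part of such reads in the decrease was not tested. Phyh, the hydroxylase that acts first, had 30.0 ± 2.28 and 27.4 ± 2.50 CPM (-0.13, adjusted p = 0.247).

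In ether lipid synthesis, which gives rise to plasmalogens, the first enzyme fell. Gnpat acylates dihydroxyacetone phosphate. The vehicle samples had 40.6, 48.3, 47.9 and 46.5 CPM of Gnpat and the PTH samples 36.8, 35.3, 35.3 and 36.3 CPM. All PTH samples were lower and close together (log2 fold change -0.35, SE 0.0705, adjusted p = 0.00152 by edgeR). Agps exchanges the acyl group for a fatty alcohol, and its decrease from 62.4 ± 2.29 to 57.2 ± 0.712 CPM did not pass (-0.12, adjusted p = 0.0959) although the groups did not overlap. Far1 makes that fatty alcohol and had 79.2 ± 4.30 and 79.7 ± 5.42 CPM (95% interval of the log2 fold change -0.13 to 0.14). The ratio of Far1 to Gnpat per kb rose from 1.04 ± 0.0616 to 1.34 ± 0.0937, and that of Gnpat to Agps fell from 1.81 ± 0.148 to 1.55 ± 0.0217. For neither ratio did the treatments overlap (p = 0.0286 each by the exact two-sided permutation test, 0.0429 adjusted over 6 pairs). Both hold the Gnpat values already tested above, so these p-values are not separate support for its decrease. The ratio of Pex6 to Pex26 did overlap (5.19 ± 0.607 and 6.66 ± 1.37, exact two-sided permutation p = 0.0857).

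Levels between genes were compared per kb of the longest annotated transcript. Which transcripts the cells expressed was not tested, and a long annotated one, such as that of Pex7 (8099 bases), lowers the level given. With vehicle, Cat (64.2 ± 1.56 CPM per kb), Pex19 (33.9 ± 1.83) and Scp2 (32.6 ± 0.989) were the most abundant, Pex19 and Scp2 being within their spread of each other. Abcd2 (0.952 ± 0.140) was the lowest tested member, and Ehhadh (1.44 ± 0.233), Pex10 (1.55 ± 0.212), Pex7 (1.59 ± 0.225) and Pex11a (1.83 ± 0.214) stood close above it without clear separation between neighbours. Pex5 moved from rank 14 with vehicle (14.1 ± 0.397) to rank 4 with PTH (28.0 ± 2.59). Crot moved from rank 9 to 15 and Decr2 from rank 10 to 14, while Cat stayed at rank 1. Over all 21 enzymes and transporters the summed level was 330 to 333 CPM per kb with vehicle and 292 to 311 with PTH.

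**Figure D4:**
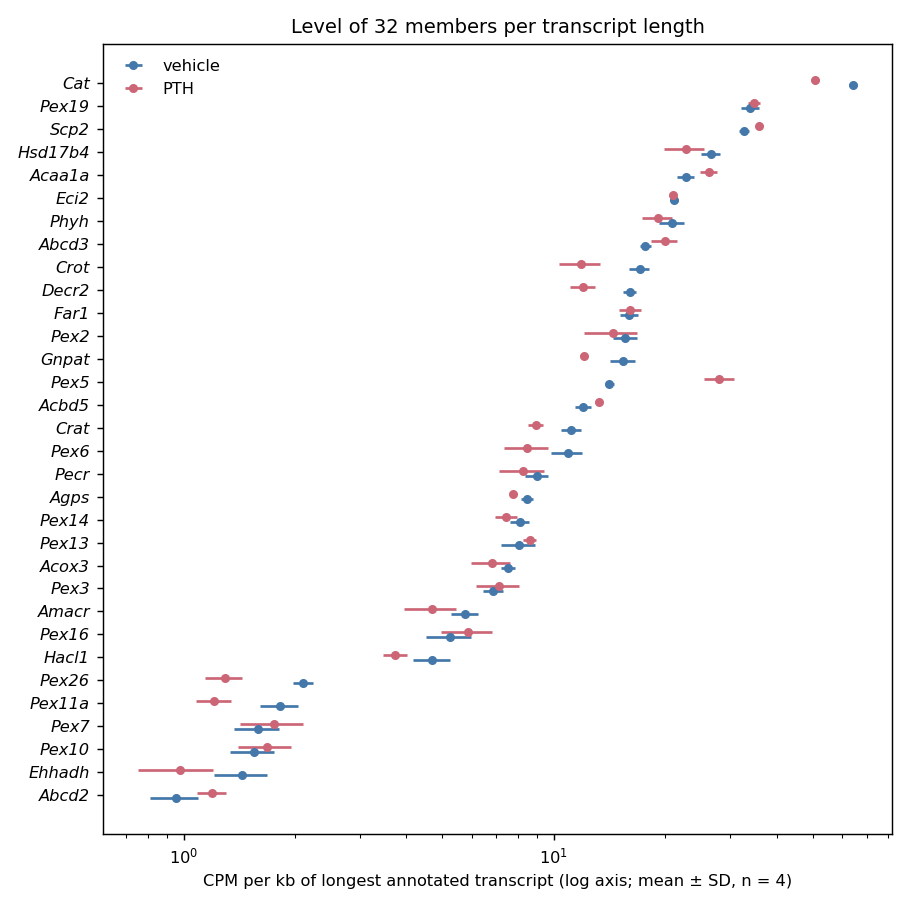
Mean level per kb of longest annotated transcript (x axis, log scale) with SD for 32 members with vehicle and with PTH, n = 4 each, ordered by the vehicle level (y axis). Members span from about the level of Abcd2 (0.952) to Cat (64.2), and Pex5 shows the widest gap between treatments.

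Other peroxisomal genes were read from a list of 59 genes written by hand, of which 51 were tested. Of these 11 were upregulated and 18 were downregulated, 56.9% in all against the background of 45.8%, with a median log2 fold change of -0.14. The increases included those of Pmvk (4.19, adjusted p = 1.35e-11), Mvk (36.1 ± 2.39 CPM with vehicle and 102 ± 14.7 CPM with PTH) and Far2 (1.24). Pmvk and Mvk are kinases of the mevalonate route to cholesterol, and Far2 is a paralog of Far1 with at most 111 counts in any sample. The 4 largest decreases were those of Nudt7 (-1.12) and Nudt12 (-1.06), which hydrolyze CoA and nicotinamide nucleotides, of the acyl-CoA thioesterase gene Acot6 (-1.02) and of Pex11g (-0.83), a relative of Pex11a.

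Mitochondrial β-oxidation, which takes up what peroxisomes export, was read from a list of 20 genes written by hand, all of which were tested. The list holds Cpt1a, Cpt1c and Cpt2 but not Cpt1b, so its shares are not those of the whole pathway. Of these 4 were upregulated (20.0%) and 6 were downregulated (30.0%), against 23.3% and 22.5% of all tested genes, and the median log2 fold change was -0.09. The largest decrease was that of Cpt2, the inner carnitine palmitoyltransferase (-0.51, adjusted p = 2.60e-04), ahead of Etfdh (-0.40), Cpt1a (-0.37) and Acads (-0.37). The increases were those of the carnitine importer Slc22a5 (0.78, adjusted p = 1.41e-05), Etfa (0.30), the acylcarnitine carrier Slc25a20 (0.25) and Acadvl (0.17).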

How the data were processed

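From polyadenylated RNA, the authors aligned reads with HISAT2 (GRCm38), ran SAMtools to sort them, assembled transcripts with StringTie2 and deposited a table of gene counts that its companion script estimates from transcript coverage. These counts are whole numbers and are not scaled. Tool versions, annotation version and strand setting are not given in the sources used here, so reads of overlapping genes cannot be assigned by strand.

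The members and lists were chosen with earlier results of these data known. Counts were tested with edgeR 4.0.16 in R 4.3.3 (TMM normalization, quasi-likelihood F-test, genes kept by filterByExpr at 10 counts per sample and 15 in total), and genes with an adjusted p under 0.05 were called. The study used DESeq2, and version 1.42.0 was an alternative. The SE is the log2 fold change over the square root of F, and 95% intervals are normal. CPM values use TMM-normalized library sizes. Exact permutation tests ran over 70 assignments of log2(CPM + 0.1) or log2 ratios. Lengths and positions come from GENCODE M21 and promoter windows from RefSeq (GRCm38). Similar transcripts (150 bases, 95% identity) were found with blastn 2.17.0. Alternatives were DESeq2, its size factors, no filter, a replicate block, a length offset (lowess), halved counts (for the read length assumed in counting), counts summed by symbol, thinned counts and leaving out each sample. The scripts were tested on simulated counts. All members are named, with values in every sample for the called members and for those whose call changed in an alternative. For the other lists the 4 largest called changes each way are named, except for results not reported here. Protein targeting signals were planned but not analysed here.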

Additional observations from a re-analysis of the deposited data

Results flagged for a closer look

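In 4 of 64 groups of 4 samples examined (32 members, 2 treatments), the highest or lowest sample stood apart by Dixon's criterion, and about 1 group in 20 does so by chance. All 4 were low vehicle samples. Decr2 had 33.5 CPM in vehicle replicate 3 against 36.2 to 36.6 CPM in the other vehicle samples. Hsd17b4 had 64.7 CPM in vehicle replicate 2 against 72.6 to 74.1 CPM. Eci2 had 58.6 CPM in vehicle replicate 4 against 61.4 to 61.9 CPM. Pex16 had 5.80 CPM in vehicle replicate 3 against 7.65 to 7.94 CPM.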

How the results depend on the processing

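Of the 12 members called, 9 kept their direction and call in all 16 alternatives, the exceptions being Acaa1a, Ehhadh and Hacl1, and 7 of the 20 uncalled members passed in at least 1. The number of upregulated members, 2 in the report (1 of them an enzyme), was 1 (0 enzymes) without the filter on low counts and with the replicate block, 6 (5 enzymes) with the length offset and 4 (3 enzymes) with counts halved. With each sample left out in turn it ran from 1 to 3 (0 to 2 enzymes), and was 1 without PTH replicate 4 or vehicle replicate 2 or 4. The number of downregulated members ran from 8 to 12. Of 4 uncalled members the sign changed. Eci2 (-0.01) was at 0.00123 with DESeq2's size factors, 0.0595 with the length offset, 0.00217 with counts halved and 0.0256 with thinned counts, and ran from -0.0287 to 0.00275 with single samples left out. Pex19 (0.03) was at -0.00182 and Far1 (0.01) at -0.0276 without the filter. With single samples left out Far1 ran from -0.0277 to 0.0464 and Pex3 (0.05) from -0.0369 to 0.12. Same-numbered samples had correlations of deviations between -0.0409 and 0.0274, and 1 of 8 samples correlated best with its own number, so the numbers were not taken to pair samples. With the replicate block, 3571 genes were upregulated and 3432 downregulated, Acaa1a (adjusted p = 0.0611) and Ehhadh (0.0693) were lost, and Hsd17b4 passed (0.0320). The cause of these changes was not tested. Low counts limit Acox2, Ehhadh, Pex10 and Pex11a.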
